A study of Mus musculus with 54 samples.

Results

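A set of 50 named mouse genes had a higher mean level than wildtype in each of 5 emerin-deficient or emerin-transduced myogenic progenitor lines, at each of 3 days of differentiation. The genes were chosen by measured values, from the deposited mean level of each group. A gene entered when it was listed in all 15 tables that set a line beside wildtype, when the log2 ratio of line to wildtype, with 1 added to both means, was at least 0.8 in every table, and when the higher of both means was at least 20 in every table. Of 14443 named genes listed in all 15 tables, 50 met this rule, which is 0.346%. All 50 are protein-coding. Because the ratios chose the genes, their direction and size against wildtype are a description, and no test was made of them.

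Emerin is a protein of the inner nuclear membrane encoded by the X-linked Emd gene, and its loss or mutation causes Emery-Dreifuss muscular dystrophy. Myogenic progenitors are muscle precursor cells that stop dividing, express muscle proteins and fuse into myotubes when serum is withdrawn. H2K progenitors carry a conditional immortalizing transgene that is active in medium with γ-interferon, the condition in which the cells were kept before differentiation.

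Poly-A RNA of 54 samples was sequenced, and the labels place 3 replicates in each of 18 groups. The 6 lines were wildtype progenitors, emerin-null progenitors (EMD-/y), and EMD-/y progenitors transduced by lentivirus with wildtype emerin (+EMD) or with emerin carrying the disease mutations S54F, Δ95–99 or Q133H. Each line was sampled at 0, 24 and 48 h of differentiation, called days 0, 1 and 2. The labels place puromycin in the medium of the mutant lines while they proliferated and differentiated, +EMD was also selected with it, and none is named for wildtype or EMD-/y. All 5 compared lines derive from EMD-/y cells, while wildtype is a separate line. The paper reports emerin protein by blot in +EMD and the mutant lines, and none in EMD-/y. In EMD-/y the absence of emerin and any other difference from the wildtype line cannot be told apart. The part of emerin in the values of the other lines was not tested. The vector-only line was not analysed here. The same wildtype groups stand in the 5 comparisons of a day, so the comparisons are not independent of each other.

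The deposited tables hold 1 mean per group and no value per sample. The spread between replicates, the depth of each sample and the error of each ratio are therefore unknown, and each value below is the authors' mean without SD. The means of all listed genes of a group summed to between 16719491 and 21128040. Emd had means of 987 to 1962 in wildtype and 0.677 to 3.52 in the other lines, +EMD included, so this gene separates wildtype from the 5 lines and does not check which construct a line carries. The myogenic markers Myod1 (wildtype 13878 to 21857, lines 6217 to 22336) and Des (wildtype 15107 to 63503, lines 9594 to 57785) were abundant in all groups, and with Cdh15, Ncam1 and Myog their median log2 ratios lay between -0.39 and -0.09. The other two of the 7 myogenic markers were higher in the lines at the median. Pax7, a satellite cell marker, ranged from 50.3 to 388 in wildtype and from 3.62 to 2148 in the lines (median log2 ratio 2.63), and Myf5, an early myogenic factor, from 125 to 241 and from 226 to 1514 (1.75). Their part in the values below was not tested. Of 22 markers of fibroblasts, blood, endothelium, Schwann cells and adipocytes, 2 (Hbb-bs and Sox10) were listed in no table and 14 stayed under a mean of 30 in every group, Ptprc and Pecam1 among them. The 6 others were Ly6a (277 to 4989 in wildtype, 323 to 3643 in the lines), Pparg (up to 108, median log2 ratio 0.78), Cd68 (up to 106), Pdgfra, Dcn and Tek. Summed over the 22, the means ranged from 394 to 5192 in wildtype and from 445 to 3822 in the lines, and their part in the values was not tested either. In bulk RNA, more cells of a type and more RNA per cell cannot be told apart.

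The middle gene of the set lay between 1.97 and 3.02 log2 units above wildtype, depending on line and day. The median log2 ratio over the 50 genes in EMD-/y was 2.22 at day 0, 2.20 at day 1 and 1.97 at day 2. In +EMD, the EMD-/y line given wildtype emerin back, it was 2.85, 3.02 and 2.92. For Δ95–99 the medians were 2.30, 2.89 and 3.01, for Q133H 2.09, 2.43 and 2.90, and for S54F 2.54, 2.46 and 2.19. Over all 11240 genes with a higher mean of at least 20 in every comparison, the medians lay between -0.02 and 0.002. The smallest ratio of a gene was at least 1 for 37 of the 50 genes and at least 2 for 15. The line that held it was EMD-/y for 18 genes, Q133H for 15, S54F for 7, +EMD for 6 and Δ95–99 for 4. In 32 genes the lowest mean of any line at any day was above the highest wildtype mean at any day. The rule had put each line above wildtype within each day, so it partly fixed this count. The share over all genes was not counted.

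**Figure D1:**
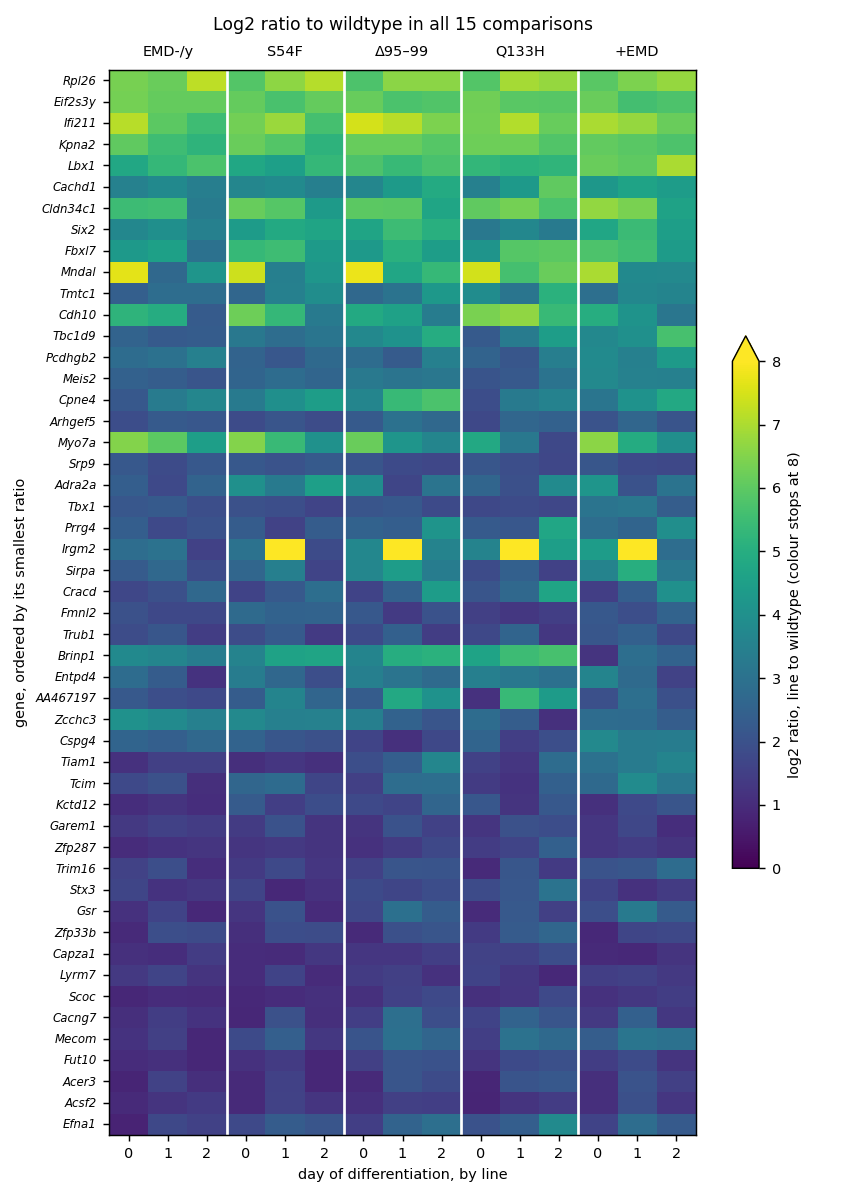
Log2 ratio of the group means, line to wildtype, for the 50 genes (rows, ordered by their smallest ratio) in the 15 comparisons (columns: 5 lines, days 0, 1 and 2). The upper rows, from Rpl26 down to Lbx1, hold a ratio above 4 in all columns, and Irgm2 passes 8 at day 1 in 4 of the 5 lines.

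The 3 genes just inside the limit were Efna1, with a smallest log2 ratio of 0.81 (EMD-/y, day 0), Acsf2 with 0.81 (Q133H, day 0) and Acer3 with 0.82 (EMD-/y, day 0). Just outside were Fam110c with 0.79 (EMD-/y, day 2), Eif3j1 with 0.78 (Q133H, day 2) and Wnt5a with 0.78 (+EMD, day 2).

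Housekeeping genes of translation and nuclear transport held some of the largest ratios. Rpl26, a protein of the large ribosomal subunit, had wildtype means of 90.4 to 92.3 at day 0, 67.3 to 71.0 at day 1 and 59.9 to 66.3 at day 2, the ranges covering the 5 tables that hold each wildtype group. Its day 0 means in the lines were 7637 in EMD-/y, 5787 in +EMD, 5284 in Q133H, 5344 in S54F and 5001 in Δ95–99, and they lay between 4902 and 8890 at the later days. The rule fixed that each line mean lay above the wildtype mean of its table, and the smallest log2 ratio was 5.76 (Δ95–99, day 0). Rpl26 was the only member among 77 listed ribosomal protein genes, and the median of that list was 0.08. Kpna2, an importin α that carries proteins into the nucleus, had day 0 means of 93.8 to 97.3 in wildtype and of 6369 to 7215 in the lines. At day 2 its means were 39.8 to 44.6 in wildtype, 1518 in EMD-/y, 2244 in +EMD, 2613 in Q133H, 1499 in S54F and 2610 in Δ95–99. The level was thus lower at day 2 on both sides, and the rule required that a gap remained. Srp9, a subunit of the signal recognition particle, differed less, with 248 to 360 in wildtype and 1092 to 1578 in the lines.

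Eif2s3y encodes the Y-linked γ subunit of the initiation factor eIF2. Its wildtype means were 17.7 to 18.6 at day 0, 15.3 to 15.8 at day 1 and 21.7 to 23.5 at day 2. In the lines they were 1572 in EMD-/y, 1343 in +EMD, 1442 in Q133H, 1289 in S54F and 1370 in Δ95–99 at day 0, and 790 to 1595 over the later days. The smallest log2 ratio was 5.60 (+EMD, day 1). Other Y-linked genes did not share the gap. Ddx3y had 1260 to 2331 in wildtype and 1190 to 1909 in the lines, Kdm5d 405 to 739 against 352 to 553, and Uty 398 to 746 against 364 to 679. The X-linked counterpart Eif2s3x had 6076 to 6911 in wildtype and 5644 to 6913 in the lines.

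Reads of some members can match a near-identical sequence elsewhere. Of 49 members with a transcript in GENCODE vM21, 7 aligned to the transcript of a separate gene over at least 200 bases at 97% identity or more. Kpna2 aligned to Gm10184 over 1968 bases at 99.9%, and Rpl26 to Gm15772 over 438 bases at 98.2%. Capza1 aligned to Gm3608, Scoc to Gm7335, Acsf2 to Gm5540 and Cldn34c1 to Cldn34c2 and Cldn34c3. These copies, and those of Kpna2 and Rpl26, were looked up by gene ID or symbol and found in none of the 15 comparisons. Entpd4 aligned over 3589 bases at 100% to Entpd4b, which had 699.8 to 1290 in wildtype and 712 to 1450 in the lines. Srp9, Tcim and Kctd12 overlap an annotated gene on the opposite strand, and Pcdhgb2 shares its 3′ exons with the other γ-protocadherins. The levels of these 11 members are uncertain to the extent that reads were divided between such sequences.

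Genes of the interferon response formed the next group. Ifi211 and Mndal belong to the Ifi200 family of DNA-sensing nuclear proteins, and Irgm2 is a GTPase of the cellular response to intracellular pathogens. Interferons induce all of them, through elements such as the interferon-stimulated response element, and γ-interferon was part of the proliferation medium of every line. The 250 bases before an annotated transcript start of each gene, from RefSeq GRCm38.p6 and 5′ to 3′ on the gene's strand, are shown because the 3 promoters hold the letters GAAA, any 2 bases and GAAA again (capitals), a form of that element.
Ifi211, chr1:173913047-173913296, minus strand: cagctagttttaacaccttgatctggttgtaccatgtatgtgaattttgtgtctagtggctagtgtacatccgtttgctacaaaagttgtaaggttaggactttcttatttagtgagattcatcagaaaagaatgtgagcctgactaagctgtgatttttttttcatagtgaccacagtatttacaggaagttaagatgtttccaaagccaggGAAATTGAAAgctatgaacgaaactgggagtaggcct
Mndal, chr1:173880188-173880437, minus strand: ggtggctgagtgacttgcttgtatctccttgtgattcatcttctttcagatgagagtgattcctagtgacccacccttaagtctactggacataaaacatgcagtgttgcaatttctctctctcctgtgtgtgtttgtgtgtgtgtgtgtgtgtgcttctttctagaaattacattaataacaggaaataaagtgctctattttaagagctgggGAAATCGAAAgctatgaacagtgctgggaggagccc
Irgm2, chr11:58214727-58214976, plus strand: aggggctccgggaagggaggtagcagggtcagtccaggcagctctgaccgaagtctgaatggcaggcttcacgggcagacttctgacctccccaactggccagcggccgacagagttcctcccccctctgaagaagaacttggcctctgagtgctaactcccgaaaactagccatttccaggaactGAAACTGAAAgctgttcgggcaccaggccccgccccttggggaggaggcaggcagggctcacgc
The annotated genes Mndal and Ifi211 reach further upstream than these starts, so the Mndal window lies mostly, and the Ifi211 window in part, within the gene, and Mndal has a second window that is not shown. The match begins 37 bases before the start used in Ifi211, 36 in Mndal and 64 in Irgm2. In Ifi211 and Mndal the match itself thus also lies within the annotated gene. On either strand it is present for 4 of the 41 members with a promoter window (Mecom is the other one), or 9.76%, and for 3.99% of all 27025 genes with a window. This element was added after the data were seen, and apart from Mecom the members with it are the genes shown. No excess in the set can therefore be read from these shares.

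Ifi211 was high in all lines and low in wildtype at each day. Its day 0 means were 2960 in EMD-/y, 2521 in +EMD, 1596 in Q133H, 2862 in S54F and 3696 in Δ95–99, against 18.8 to 35.1 in wildtype. At day 2 they were 453, 692, 726, 491 and 855 in the same order, against 8.58 to 9.39. Between day 0 and day 1 Ifi211 fell by 1.98 on the log2 scale in EMD-/y, by 1.35 in +EMD, by 1.32 in S54F and by 1.47 in Δ95–99, while the change in Q133H was 0.01.

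Mndal had day 0 means of 1178 in EMD-/y, 613 in +EMD, 843 in Q133H, 1048 in S54F and 1148 in Δ95–99, against 3.84 to 5.29 in wildtype. At day 1 the lines held 189, 209, 782, 249.8 and 420, in the same order, against 14.0 to 28.2. Thus Q133H retained most of its day 0 level and EMD-/y the least. Irgm2 had day 0 means of 6152, 4134, 885, 5334 and 6245, and day 1 means of 1295, 1314, 2935, 2013 and 2924, again in that order. Q133H was the line with the lowest Irgm2 level at day 0 and the one in which it rose, by 1.20 on the log2 scale to day 1.

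The wildtype means of these genes were not the same in all tables. Irgm2 in the same wildtype day 0 libraries was listed at 840 in the table with EMD-/y, 191 with +EMD, 73.3 with Q133H, 664 with S54F, 483 with Δ95–99 and 9.95 in the table that holds only wildtype groups. At day 1 its wildtype mean ranged from 1.29 to 159, and at day 2 from 100.7 to 791 beside lines and 2.96 in the wildtype-only table. To compare tables, the difference of the median gene between them was removed first. Over the 50 genes, 9 had a wildtype mean that differed by more than 1.5-fold between tables: Irgm2 (up to 290.5-fold), Mndal (7.34), Cdh10 (7.23), Cldn34c1 (4.68), Entpd4 (3.99), Fbxl7 (2.63), Lbx1 (2.13), Ifi211 (2.12) and Cpne4 (1.65). Over the 11240 genes with a higher mean of at least 20, 0.427% did so. Members could reach that mean through the lines alone. No pseudocount was added in this step, so low wildtype means, as in Cdh10 (0.69 to 3.27 beside the lines) and Lbx1 (2.35 to 4.18), can give large folds. Both shares are therefore not like for like. The means of the 5 lines differed less between tables, by at most 1.49-fold (Irgm2). A line group stands in fewer tables than a wildtype group and has higher means for these genes. The spreads of lines and wildtype are therefore not like for like either. How the authors' processing produced these differences was not tested. With levels taken instead from the wildtype-only and line-only tables, which the rule did not use, the 50 genes were also at least 0.8 above wildtype in all 15 combinations, and the smallest ratio of Irgm2 was 6.70 in place of 1.54. The libraries are the same, so this does not replicate the comparison.

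**Figure D2:**
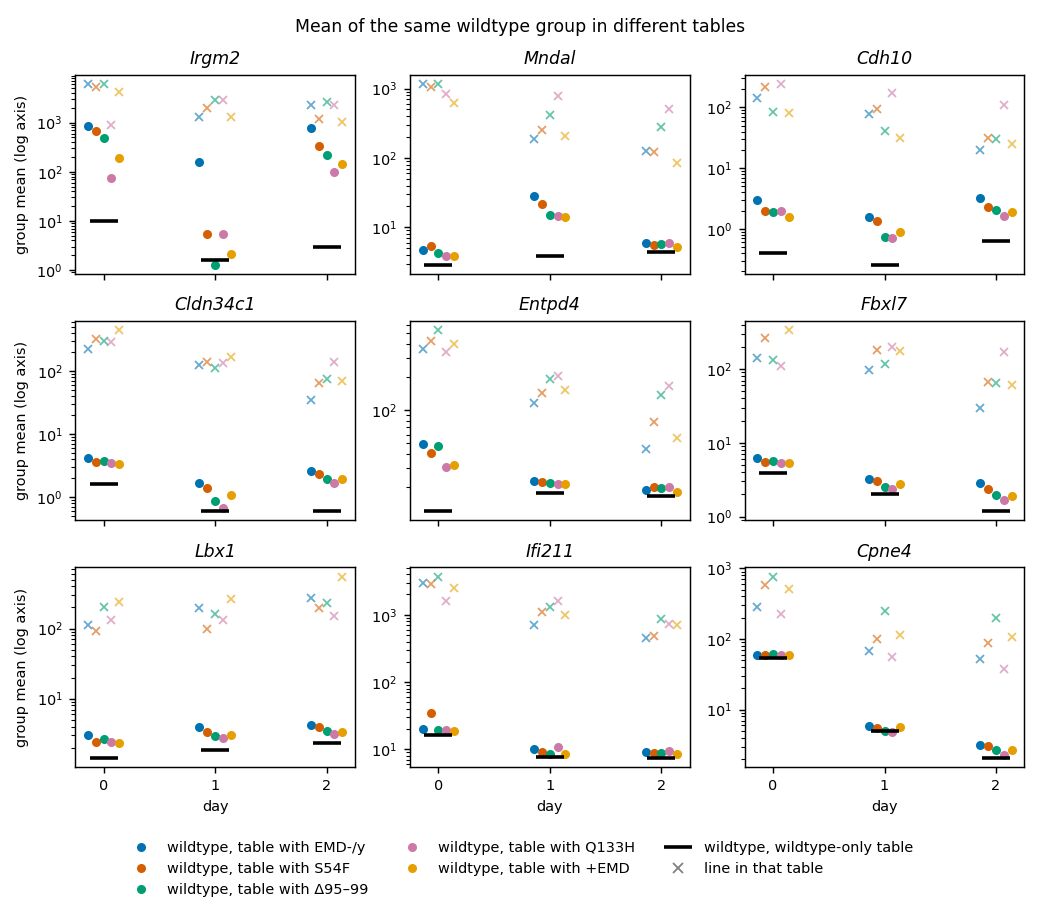
Mean level (log axis) by day for the 9 genes whose wildtype mean differed by more than 1.5-fold between tables. Circles are the same wildtype groups in the table with each line, black bars are wildtype in the wildtype-only table, and crosses are the lines. The crosses lie above the circles of their own table in all panels, as the rule requires, and the Irgm2 circles spread from 73.3 to 840 at day 0.

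The genes around Mndal and Ifi211 on chromosome 1 stood on both sides of wildtype. Both genes are adjacent, at chr1:173857215-173880382 and chr1:173896339-173913087 (mm10). Ifi203, the next gene of the family, had a median log2 ratio of -2.19 over the 15 comparisons, and Ifi202b one of -7.95, with a range of -9.79 to -7.13. Ifi204, on the other side, had -0.98. Ifi205, whose means did not all reach 20, was higher in all 15, by 0.49 to 5.39 with a median of 3.36. One family cluster therefore held both members with median ratios above 5 and a gene with ratios below -7. Among the 29 listed genes of a general interferon response list (Ifit, Oas, Mx, Stat and related genes), 0 were members and the median log2 ratio was -0.34. That list does not hold Ifi211, Mndal or Irgm2. Over all listed genes 0.346% were members, so a list of this size can hold none at that share.

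Of the members, 3 other pairs lay within 5 protein-coding genes of each other: Zfp287 and Trim16 on chromosome 11, Myo7a and Acer3 on chromosome 7, and Tbc1d9 and Scoc on chromosome 8. Capn5, between Myo7a and Acer3, was also higher in all 15 comparisons, by 0.65 to 1.97, below the limit of the rule. Zfp286, between Zfp287 and Trim16, had a median of -0.32. Cenpv, on the other side of Zfp287, was higher in all 15 by 0.40 to 1.27. Around Tbc1d9 and Scoc the medians of the 9 other genes with a higher mean of at least 20 in every comparison lay between -0.44 and 0.36. Clgn, between both members, did not reach that mean everywhere and was higher in all 15, by 0.02 to 3.36 with a median of 1.16. Chromosome 11 held 7 members and 8.34% of all listed genes, chromosome 2 held 6 and 7.82%, and chromosome 8 held 5 and 5.37%. No member lay within 50 genes of Emd.

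**Figure D3:**
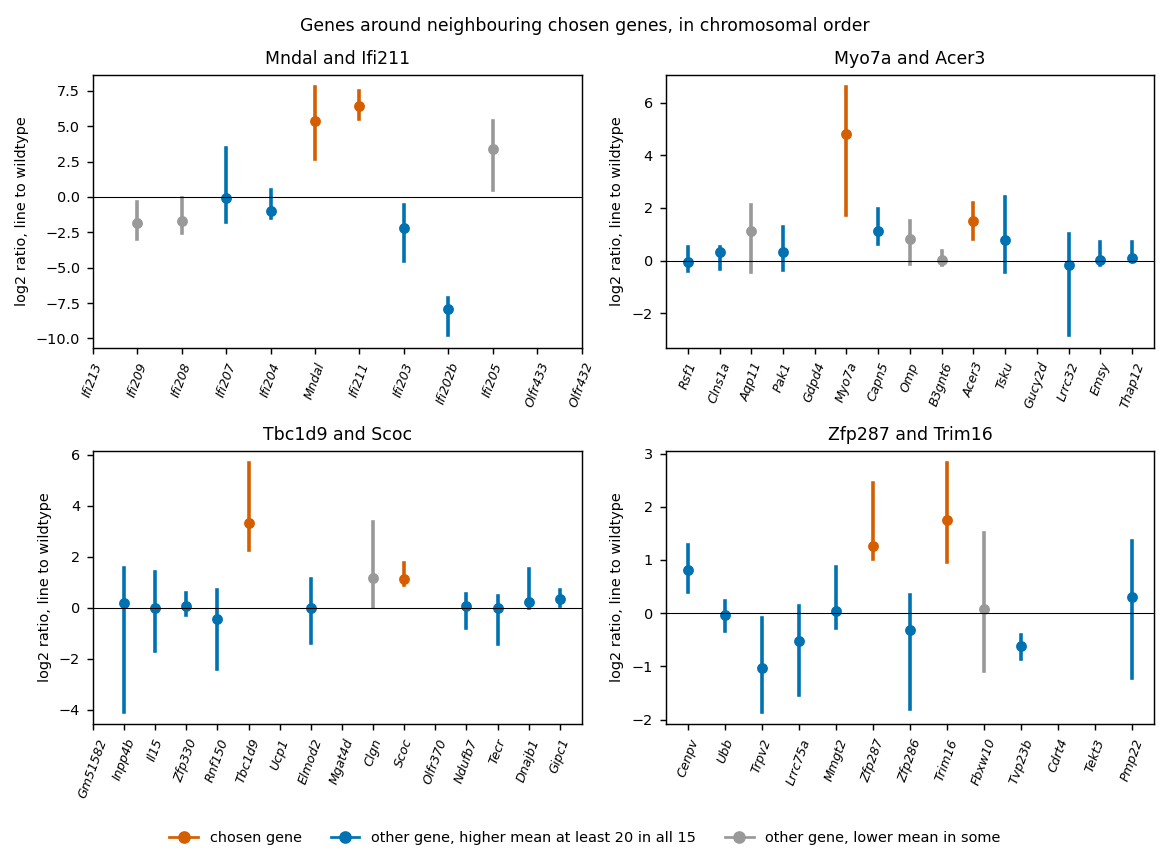
Log2 ratio to wildtype (point: median, line: lowest to highest of the 15 comparisons) for the protein-coding genes around 4 pairs of members, in chromosomal order; genes with no point were not analysed in all 15. Mndal and Ifi211 stand at 2.70 or above while Ifi202b, 2 genes further on, stands at -7.13 or below.

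Developmental transcription factors formed a further group. Lbx1, a homeobox factor required for migrating limb muscle precursors, had wildtype means of 2.35 to 4.18 over all days. Its means in the lines were 112 in EMD-/y, 242 in +EMD, 132 in Q133H, 93.1 in S54F and 201 in Δ95–99 at day 0, and 277, 552, 153, 195 and 234 at day 2. Lbx1 was thus highest in +EMD at both days, and rose past 2-fold from day 1 to day 2 in +EMD (log2 change 1.28) and S54F (1.18). Six2, a homeobox factor that maintains nephron progenitors, had 19.3 to 20.1 in wildtype at day 0 and 272, 536, 187, 432 and 539 in the lines in the same order. At day 2 it was 7.68 to 8.11 in wildtype and 100.2, 192, 84.3, 227 and 302 in the lines, lowest in Q133H at both days. The Six2 promoter is shown for the GC box (GGGCGG or its reverse complement in capitals), the letters found most often among the members.
Six2, chr17:85688255-85688504, minus strand: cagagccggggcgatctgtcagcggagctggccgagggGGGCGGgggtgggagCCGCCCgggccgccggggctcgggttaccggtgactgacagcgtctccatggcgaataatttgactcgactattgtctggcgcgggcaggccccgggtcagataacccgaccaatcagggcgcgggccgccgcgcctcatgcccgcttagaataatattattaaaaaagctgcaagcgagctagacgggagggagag
The GC box was present, on either strand of the 300-base windows, for 63.4% of the 41 members and 38.2% of all genes with a window. For the E-box CAGCTG the shares were 24.4% and 18.3%, for the E-box CACGTG 7.32% and 8.09%, for GGAATG (TEAD) 17.1% and 16.6%, for TGAGTCA (AP-1) 7.32% and 5.95%, and for TATAAA 12.2% and 15.7%. TTCNNNGAA, a γ-activated site, was present for 12.2% and 9.55%. Each motif was counted on its own, whether or not matches overlapped. Members had to reach a mean of 20, while the genes with a window were not limited to genes measured here. This difference was not adjusted for in any motif share, that of the interferon element included.

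Meis2, a homeobox cofactor of Hox proteins, had 218 to 225 in wildtype and 932 (Q133H) to 2959 (+EMD) in the lines at day 0. Tbx1, a T-box factor of pharyngeal muscle and the cardiac outflow tract, had 64.7 to 109.5 in wildtype and 243 to 909 in the lines over all days, highest in +EMD at each of them. Mecom, a zinc finger factor of blood stem cells, had 28.8 to 79.0 in wildtype and 54.4 to 401 in the lines, with a smallest ratio of 0.90 (EMD-/y, day 2) and a median ratio of 2.36. Within a list of 57 homeobox, paired and T-box genes, which does not hold Lbx1 or Meis2, 2 were members (Six2 and Tbx1) and the median log2 ratio was -0.13.

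**Figure D4:**
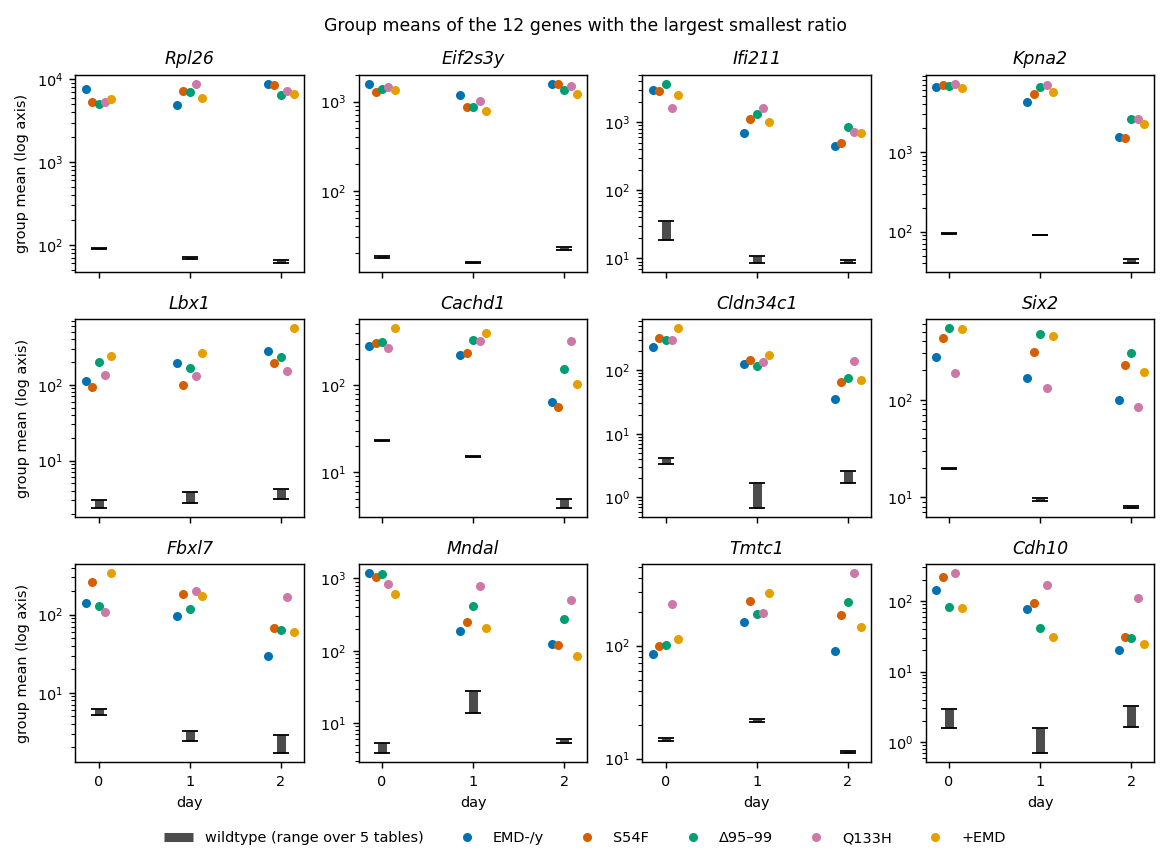
Group means (log axis) by day for the 12 genes with the largest smallest ratio. Black bars span the wildtype mean over 5 tables and coloured points are the 5 lines, which lie above the bar in each panel, for example at 4902 to 8890 against 59.9 to 92.3 for Rpl26.

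Adhesion and cell surface genes included Cdh10, Cldn34c1, Pcdhgb2, Cspg4, Efna1, Sirpa and Prrg4. Cdh10, a classical cadherin, had wildtype means of 0.69 to 3.27. Its day 0 means were 143 in EMD-/y, 80.6 in +EMD, 247 in Q133H, 220 in S54F and 83.4 in Δ95–99, and its day 2 means were 20.2, 24.7, 109.2, 30.8 and 30.1. Q133H thus held the highest Cdh10 level at both days. Cldn34c1, a claudin family member, had 0.68 to 4.12 in wildtype and 34.7 to 454 in the lines. Both are among the genes whose wildtype mean moved between tables.

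Pcdhgb2, a γ-protocadherin, had 47.3 to 99.04 in wildtype, and its means in +EMD, between 998 and 1082, were above those of the other lines (320 to 740) at each day. Of 14 other γ-protocadherins with which it shares exons, 0 were above wildtype in all 15 comparisons, 2 (Pcdhga6 and Pcdhgc4) were below in all 15 and 12 stood on both sides. The log2 ratio ranged from -3.75 to -0.27 for Pcdhga6, from -0.32 to 0.48 for Pcdhgc3, from -0.38 to 3.59 for Pcdhga12 and from -1.33 to 5.81 for Pcdhga8. Cspg4, the NG2 proteoglycan of pericytes and immature progenitors, was the only member among 17 listed proteoglycan genes. It had 47.5 to 114 in wildtype and 174 to 1142 in the lines, and was highest in +EMD at each day. Efna1, an ephrin ligand, had 24.6 to 27.6 in wildtype at day 2 and 73.4 (EMD-/y), 127 (+EMD), 403 (Q133H), 113 (S54F) and 211 (Δ95–99) in the lines. Of 80 listed cadherin and claudin genes 3 were members, and the list's median was 0.14.

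Genes of the actin cytoskeleton and of its regulation were a further group. Tiam1, an activator of Rac, had day 1 means of 302 to 324 in wildtype, 862 in EMD-/y, 3151 in +EMD, 767 in Q133H, 760 in S54F and 1710 in Δ95–99. Its level in +EMD was the highest of the lines at days 0 and 1, and at day 2 Δ95–99 (1239) and +EMD (1137) stood above the others. Arhgef5, a guanine nucleotide exchange factor, had 132.9 to 320 in wildtype and 491 to 1550 in the lines. Capza1, a subunit of the actin capping protein, had 1585 to 2468 in wildtype and 3785 to 7164 in the lines, highest in Q133H at each day. Myo7a, an unconventional myosin of inner ear hair cells, had 5.79 to 6.47 in wildtype and 191 (Q133H) to 687 (EMD-/y) in the lines at day 0. By day 2 wildtype stood at 35.7 to 39.0, after log2 changes of 1.13 and 1.48 in the intervals, and Q133H stood lowest of the lines at 131. Fmnl2, a formin that extends actin filaments, had 144.7 to 467 in the lines and a smallest ratio of 1.30. Cracd, an inhibitor of capping protein, had 98.0 to 101 in wildtype at day 0 and 4.56 to 4.97 at day 2, and its smallest ratio was 1.47.

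Receptors, channels and signalling genes included Cachd1, a calcium channel α2δ-like subunit, with 3.88 to 23.8 in wildtype and 55.8 to 447 in the lines. At day 2 Cachd1 was highest in Q133H (322), which held its day 0 level (270), while in EMD-/y it went from 282 to 63.8. Adra2a, the α2A adrenergic receptor, had 6.24 to 14.7 in wildtype and 27.5 to 233 in the lines. Between days 0 and 1 it fell by 2.68 on the log2 scale in Δ95–99 and by 2.52 in +EMD. The falls were 1.32 in S54F, 1.12 in EMD-/y, 1.12 in Q133H and 0.36 in wildtype. Cpne4, a copine that binds phospholipid with calcium, fell in all 6 lines between days 0 and 1, by 3.20 in wildtype and by 1.58 (Δ95–99) to 2.50 (S54F) in the others. Prrg4, a transmembrane Gla protein, had 209 to 214 in wildtype at day 0 and 816 to 877 at day 1, and rose past 2-fold in all 6 lines in that interval. It then fell by 2.39 in wildtype, 2.06 in EMD-/y, 1.63 in S54F and 1.01 in +EMD, while the changes in Δ95–99 and Q133H were -0.65 and 0.18.

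Genes of protein turnover, glycosylation, vesicle traffic and metabolism made up much of the rest. Fbxl7, a ubiquitin ligase subunit, had 1.69 to 6.23 in wildtype and 29.8 to 338 in the lines. Tmtc1, an O-mannosyltransferase, had 11.1 to 22.2 in wildtype and 83.9 to 437 in the lines, and Tbc1d9, a Rab regulator, had 4.93 to 19.5 and 31.6 to 308. Gsr, glutathione reductase, had 784 to 804 in wildtype at day 0 and 1596 to 2996 in the lines, and fell by 1.42 in wildtype to day 1. Trim16, a ubiquitin ligase, had 181 to 404 in wildtype and 374 to 1660 in the lines. Scoc, a Golgi coiled-coil protein, had 400 to 638 and 793 to 1874. Acer3, an alkaline ceramidase, had 65.8 to 268 in wildtype and 125 to 589 in the lines, with a median ratio of 1.51. Acsf2, an acyl-CoA synthetase, had 93.4 to 277 and 226 to 605, with a median ratio of 1.24. Stx3, a syntaxin of membrane fusion, Fut10, a fucosyltransferase, and Lyrm7, an assembly factor of respiratory complex III, had smallest ratios of 0.94, 0.89 and 0.91. Entpd4, a Golgi nucleotidase, had 341 to 536 in the lines at day 0 and 44.1 to 165 at day 2.

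The remaining members had smallest ratios between 0.90 (Cacng7) and 1.53 (Sirpa). Sirpa, the receptor for CD47, had 14.8 to 27.7 in wildtype and 53.3 to 515 in the lines. Kctd12, an auxiliary subunit of GABA-B receptors, had 67.4 to 176 and 141 to 764, and Cacng7, of the calcium channel γ family, had 34.0 to 203 and 73.8 to 621. For Trub1, a pseudouridine synthase, the smallest ratio was 1.29, for Zcchc3, a zinc finger protein that binds nucleic acid, 1.12, for Tcim 1.08, for the adaptor Garem1 1.04 and for Zfp33b 0.91.

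Zfp287, a zinc finger protein, had 36.0 to 86.2 in wildtype and 85.3 to 249 in the lines, and was the only member among 339 listed genes named Zfp and a number alone, a list that does not hold Zfp33b. AA467197 and Brinp1 are singled out here after their values were seen. AA467197 fell by 3.97 in wildtype and 3.91 in EMD-/y between days 0 and 1, and its change in Q133H was 0.50, so that its day 1 means were 63.1 in EMD-/y and 776 in Q133H. Brinp1 was lowest in +EMD of all lines at each day, with 29.0, 58.8 and 32.0, against 65.6 to 366 in the other lines. No member was found among 258 solute carrier, 40 collagen, 43 muscle structure or 19 nuclear envelope genes. Members made up 0.346% of all 14443 listed genes, so at that share lists of these sizes hold few members or none. The counts for the lists above are likewise a description.

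Changes between days were counted in the 12 tables that compare consecutive days of a line, which the rule did not use. A gene was counted when it changed at least 2-fold in either interval and its higher mean was at least 20. In wildtype, 13 of the 50 genes fell and 2 rose, where 13.7% and 11.8% of all listed named genes did so. In EMD-/y 19 fell and 2 rose (background 12.5% and 11.6%), in S54F 24 fell and 6 rose (11.7% and 11.2%), and in +EMD 23 fell and 4 rose (11% and 12.8%). In Δ95–99 13 fell and 3 rose (7.7% and 10.5%), and in Q133H 5 fell and 6 rose (7.2% and 7.87%). The share of members that fell was above this background share in all 6 lines, and least so in Q133H. The background counts all listed genes, also those under a mean of 20, which could not pass. Its shares are therefore lower than among genes that could pass, so no excess of falls among the members can be read from them. A member had to stay above wildtype at all days, so the rule limits which changes it could show. In EMD-/y the falls were mostly in the second interval, with 8 between days 0 and 1 and 12 between days 1 and 2, and likewise in S54F (9 and 16) and +EMD (9 and 17). In Δ95–99 they were mostly in the first, with 10 and 3, as in wildtype with 9 and 5. These differences between lines were not tested.

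**Figure D5:**
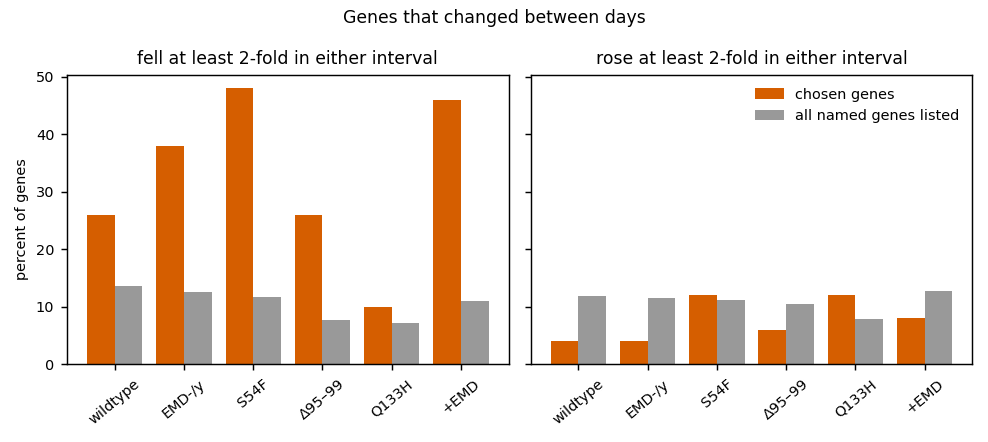
Percent of the 50 chosen genes (orange) and of all listed named genes (grey) that fell or rose at least 2-fold between days 0 and 1 or between days 1 and 2, in each of 6 lines. In S54F 24 of the 50 genes fell, beside 11.7% of all listed genes, and in Q133H 5 fell, beside 7.2%. The grey shares count all listed genes, also those with means too low to pass, and are therefore lower than among genes that could pass. No excess of falls among the chosen genes can be read from the difference.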

How the data were processed

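Per the authors, a provider sequenced the RNA, filtered reads with SOAPnuke, mapped them to mm10 with HISAT2 and compared groups with DESeq2. Versions are not given in the sources used here. The deposited signal values are 1 mean normalized count for each gene and group. The authors pooled the replicates and normalized each of 27 tables separately, 15 of a line against wildtype and 12 between consecutive days, and the exact scaling is not given in the sources used here. Fold changes, p-values and calls of the authors stand in the same tables and were not used. No column (0) gives a single sample, so no test, SD or interval was computed, and per the labels' protocol 3 technical replicates were made of each of 2 biological ones, which cannot be separated here. The lowest mean listed is 0.129, and a gene at 0 in a group is not among the listed genes.

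Group means were compared as log2 ratios with a pseudocount of 1, within a table. Symbols were matched by gene ID to RefSeq GRCm38.p6, the authors' build, for 14423 of 14443 genes. Copies were sought with minimap2 2.31-r1302 among GENCODE vM21 transcripts. Python 3.11.15, numpy 2.4.6, pandas 2.3.3 and matplotlib 3.10.9 were used. The calculation of the rule was checked on simulated data with planted changes. There wildtype varied independently in each table, unlike here, so the check says nothing about the members. The members and lists were chosen with earlier results of these data known. Genes named with values are the 20 with the largest smallest ratio, the 10 with the highest wildtype mean, members of a list, members at most 5 genes apart, and 3 on either side of the limit. Further genes named with values were chosen after their values were seen. The interferon and γ-activated elements were added to the motifs after the data were seen. Other pseudocounts, limits and scalings were tried.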

Additional observations from a re-analysis of the deposited data

Results flagged for a closer look

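The tables also list genes predicted by the sequencing provider, without a gene ID, which no comparison above uses. Of 1252 such genes listed in all 15 comparisons, 10 met the thresholds of the rule, or 0.799%, with smallest log2 ratios between 0.94 and 8.46. What these predicted genes are was not tested.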

How the results depend on the processing

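The tables give no replicate, so precision is unknown and leaving out a replicate was not run. No paired analysis was possible because the tables hold no values per sample. Of the 50 genes, 50 met the rule with a pseudocount of 0.1 (52 genes in all), 44 with 10, 37 with a fold limit of 1.0, 50 with tables centred on their median, 48 with means rescaled to the same sum (53 in all), and 50 without the +EMD line (68 in all) or without a minimum mean (70 in all). With a minimum mean of 100, 26 remained. With levels from the wildtype-only and line-only tables, an alternative chosen after seeing the data, 57 genes met the rule, the 50 among them. The median log2 ratio over genes and days was 2.17 in EMD-/y, 2.90 in +EMD, 2.45 in Q133H, 2.38 in S54F and 2.79 in Δ95–99. It moved by more than 0.1 in the following. With a pseudocount of 10 it was 2.00 in EMD-/y, 2.76 in +EMD, 2.26 in Q133H and 2.66 in Δ95–99. With a fold limit of 1.0 it was 2.55, 3.58, 3.11, 3.10 and 3.58 in the order of the lines above, and with a minimum mean of 100 it was 1.90, 2.50, 2.13, 1.95 and 2.12, as fewer genes remained. With rescaled sums it was 2.03 in EMD-/y and 2.61 in Δ95–99. Without +EMD it was 1.90 in EMD-/y, 2.16 in S54F and 2.46 in Δ95–99, and without a minimum mean 2.65 in Q133H. Of 72 recounts of changes between days, 66 stayed within 1.5 times. With a pseudocount of 10, 8 members fell in wildtype and 3 in Q133H. With a minimum mean of 100, 8 fell and 1 rose in wildtype. With rescaled sums, 1 rose in EMD-/y and 3 in S54F. The smallest ratio moved by more than 0.1 for 26 of the 50 genes with a pseudocount of 10, for 14 with levels from the wildtype-only and line-only tables, for 7 with a pseudocount of 0.1 and for 5 with rescaled sums.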
